A study of Mus musculus with 8 samples.

Results

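Lyz2, Pf4, Fcer1g, S100a9, Gp49a, Tyrobp and Alas2 are 7 transcripts of blood cells, grouped as myeloid and platelet genes of the sorted primordial germ cells (PGCs). They were taken by gene symbol from a table of 20153 gene identifiers measured in 8 mouse libraries, and the 2 PGC libraries are kept apart throughout. They had been picked because of their levels in these PGC libraries, so those levels are given as a description with no test. PGCs are the cells of the embryo from which eggs and sperm later form, and here they were taken from E9.5 embryos of the Oct4gfpXCD1 strain (passage P0), about 250 cells in each library, and the sort gate is not given in the sources used here. The iPGCs were made in vitro by a hanging drop method from BVSC embryonic stem cells at P21, with 1500 cells in each library. The PGC-like cells (PGCLCs) came from BVSC embryonic stem cells at P21, by way of epiblast-like cells and aggregates, with 300 to 500 cells in each library. Embryonic germ cell (EGC) lines 4 and 7 were derived from sorted E9.5 PGCs of the Oct4gfpXCD1 strain, were at P6, had been grown in serum and LIF on a feeder layer, and gave 500 cells to each library. All RNA was amplified with the Ovation kit before library preparation, and the labels call the 2 libraries of a group biological replicates without naming their animals or cultures. P-values below therefore measure only the spread between these libraries, which may be technical.

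Myeloid cells are the macrophages, monocytes, granulocytes and mast cells of the blood lineage, and megakaryocytes are the cells that shed platelets. In the mouse embryo, macrophages, megakaryocytes and red cells first arise in the yolk sac and enter the circulation while PGCs migrate through the hindgut. Many activating receptors of myeloid cells carry no signalling part of their own and pair with a small adaptor, such as the products of Fcer1g and Tyrobp, whose phosphorylated ITAM motif recruits the kinase Syk. In bulk samples a few cells of a blood type among many PGCs and a low level of RNA in every PGC cannot be told apart.

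The label held in part. Of the 7 transcripts, 6 reached 1 FPKM (fragments counted per kilobase of a transcript and divided by the mapped depth) in at least 1 PGC library, and 4 did so in both. Tyrobp was listed at 0 in all 8 libraries. Alas2 is neither a myeloid nor a platelet gene: it encodes the red-cell form of 5-aminolevulinate synthase, the first enzyme of haem synthesis. The 7 values summed to 150.4 FPKM in PGC library 1 and 52.5 FPKM in PGC library 2, against 0.0735 to 3.19 FPKM in the 6 cultured libraries. In the cultured libraries 39 of the 42 values lay below 1 FPKM, and the other 3 were all of Alas2.

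**Figure D1:**
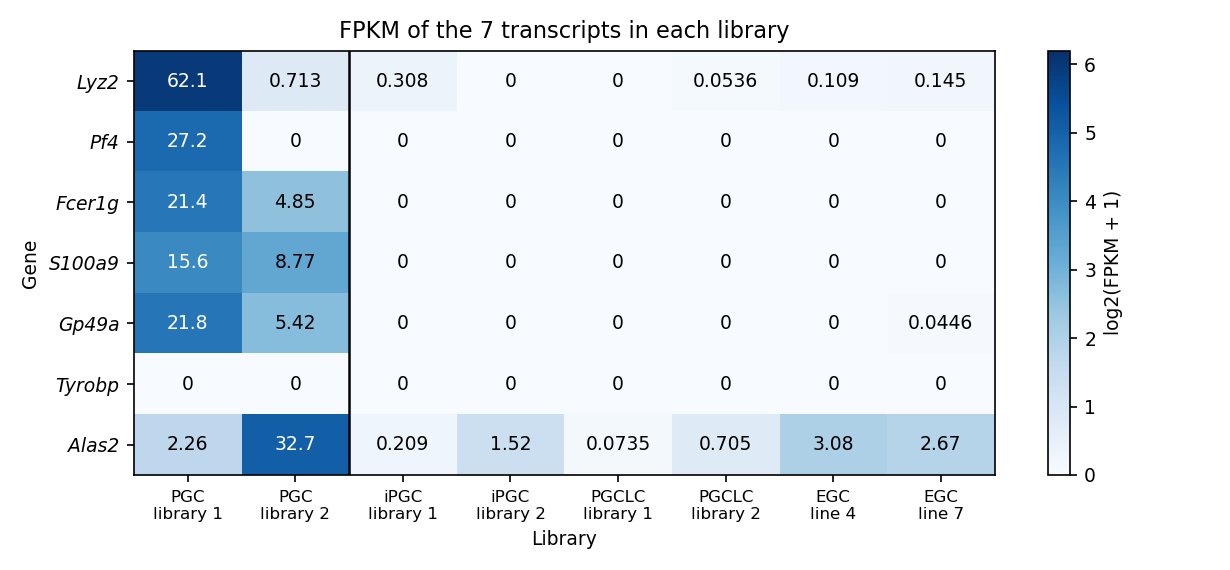
FPKM of the 7 transcripts (rows) in the 8 libraries (columns), with shading by log2(FPKM + 1) and a line between the PGC libraries and the cultured ones. PGC library 1 is the darkest column for 5 of the 7 genes, Alas2 is highest in PGC library 2 at 32.7 FPKM, and the Tyrobp row is 0 throughout.

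The sequence just upstream of the transcripts is shown for the close copies Lyz2 and Lyz1, which differed widely in level, for the 3 transcripts above 4 FPKM in both PGC libraries (Fcer1g, S100a9 and Gp49a, the last under its present name Lilr4b), and for Alas2, whose order between the PGC libraries was the opposite. Each is the 250 bases before the RefSeq start of the gene in GRCm38.p6, written 5′ to 3′ on the strand of the gene. The Lyz2 sequence is chr10:117282273-117282522 (- strand), Lyz1 chr10:117292869-117293118 (- strand), Fcer1g chr1:171234350-171234599 (- strand), S100a9 chr3:90695722-90695971 (- strand), Lilr4b chr10:51480362-51480611 (+ strand) and Alas2 chrX:150547167-150547416 (+ strand). Capitals mark every match, on either strand, to AGGAA (the core letters bound by ETS factors such as PU.1), GATAA (a core of GATA factor sites) or TATAAA (the TATA box).
Lyz2: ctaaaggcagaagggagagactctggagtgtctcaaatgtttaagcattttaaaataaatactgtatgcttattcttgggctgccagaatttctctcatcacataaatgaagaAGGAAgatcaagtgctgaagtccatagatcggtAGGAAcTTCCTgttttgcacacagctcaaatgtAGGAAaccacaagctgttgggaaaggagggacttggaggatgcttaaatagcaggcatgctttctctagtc
Lyz1: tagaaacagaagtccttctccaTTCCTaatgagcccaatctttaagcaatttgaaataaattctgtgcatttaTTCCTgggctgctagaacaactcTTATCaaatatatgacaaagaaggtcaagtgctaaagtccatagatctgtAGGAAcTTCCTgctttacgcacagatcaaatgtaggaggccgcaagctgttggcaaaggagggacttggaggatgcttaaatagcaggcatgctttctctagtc
Fcer1g: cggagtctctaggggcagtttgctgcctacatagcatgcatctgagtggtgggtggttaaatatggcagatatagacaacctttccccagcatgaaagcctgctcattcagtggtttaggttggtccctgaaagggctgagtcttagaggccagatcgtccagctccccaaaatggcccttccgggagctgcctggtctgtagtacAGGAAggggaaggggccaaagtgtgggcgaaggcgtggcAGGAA
S100a9: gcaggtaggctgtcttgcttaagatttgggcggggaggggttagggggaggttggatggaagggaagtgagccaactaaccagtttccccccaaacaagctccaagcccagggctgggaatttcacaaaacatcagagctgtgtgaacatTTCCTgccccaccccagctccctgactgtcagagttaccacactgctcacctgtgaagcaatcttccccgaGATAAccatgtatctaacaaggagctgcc
Lilr4b: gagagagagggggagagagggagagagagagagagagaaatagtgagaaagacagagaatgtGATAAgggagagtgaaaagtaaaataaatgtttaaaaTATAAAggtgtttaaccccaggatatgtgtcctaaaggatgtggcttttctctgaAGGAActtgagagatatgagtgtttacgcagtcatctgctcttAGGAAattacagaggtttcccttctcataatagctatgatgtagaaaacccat
Alas2: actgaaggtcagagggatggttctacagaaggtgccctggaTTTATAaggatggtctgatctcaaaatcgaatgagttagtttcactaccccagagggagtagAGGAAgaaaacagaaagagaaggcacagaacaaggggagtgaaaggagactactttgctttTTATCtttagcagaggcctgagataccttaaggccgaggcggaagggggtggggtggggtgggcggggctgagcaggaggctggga

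Of the 7 transcripts, 6 had a promoter in the RefSeq table, and each of these 6 held at least 1 AGGAA match, against 60.3% of all 32851 promoters of the same length. GATAA was present in 3 of the 6 (S100a9, Lilr4b and Alas2), against 22.6% of all promoters. TATAAA was present in Lilr4b and Alas2, against 12.4% of all, and lay 151 to 146 bases before the start in Lilr4b and 209 to 204 bases before it in Alas2. No searched motif overlapped another. The Lyz2 and Lyz1 sequences matched at 205 of 260 aligned columns (78.8%). Each holds 4 AGGAA matches. Both carry a pair in opposite orientation at 104 to 100 and 98 to 94 bases before the start, Lyz2 has its other matches at 137 to 133 and 71 to 67 bases, and Lyz1 has its own at 228 to 224 and 177 to 173 bases and a GATAA match at 154 to 150 bases. These matches describe letters only and show no binding.

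Lyz2 encodes lysozyme M, the enzyme with which macrophages and granulocytes cleave bacterial cell walls (chr10:117277331-117282321, minus strand, GRCm38). It had 62.1 FPKM in PGC library 1 and 0.713 FPKM in PGC library 2. In culture it had 0.308 and 0 FPKM in iPGC libraries 1 and 2, 0 and 0.0536 FPKM in PGCLC libraries 1 and 2, and 0.109 and 0.145 FPKM in EGC lines 4 and 7. Both PGC libraries lay above every cultured library, but almost the whole signal was in PGC library 1, at 87.2 times the level of library 2. At the approximate depth of each library these levels correspond to about 1407 and 13.2 reads in PGC libraries 1 and 2, and to at most about 3.10 reads in a cultured library. Among genes at 1 FPKM or more in PGC library 1, 93.8% were lower than Lyz2.

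Lyz1, a close copy whose product in mouse is made mainly by Paneth cells of the gut, lies 5475 bases from Lyz2. Its transcript is 92% identical to that of Lyz2 over 1317 aligned columns, and 15.4% of the 50-base stretches of the Lyz2 transcript also occur in Lyz1. It had 0.0892 FPKM in PGC library 1 and was listed at 0 in the other 7 libraries. The signal was thus assigned almost wholly to Lyz2, although any division of shared reads between the copies was made by the authors' software.

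Pf4 encodes platelet factor 4 (CXCL4), a chemokine stored in the alpha granules of platelets and made by megakaryocytes (chr5:90772435-90773383, plus strand). It had 27.2 FPKM in PGC library 1, about 275 reads, and was listed at 0 in PGC library 2 and in all 6 cultured libraries. Its neighbour Ppbp, which encodes another platelet chemokine (CXCL7) and lies 2371 bases away, had 18.5 FPKM in PGC library 1. It was listed at 0 in PGC library 2 and in 5 of the cultured libraries, and had 0.0583 FPKM in iPGC library 2. Both chemokine transcripts were therefore seen at more than trace level in a single library, and neither shares a 50-base stretch with another gene.

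Fcer1g encodes the gamma chain shared by the high-affinity IgE receptor and several IgG receptors (chr1:171229572-171234365, minus strand). It had 21.4 FPKM in PGC library 1 and 4.85 FPKM in PGC library 2, about 252 and 46.7 reads, and was listed at 0 in every cultured library. The PGC libraries did not overlap the cultured ones, and library 1 was 4.42 times library 2. The gamma chain works together with other receptor chains at the cell surface, and 4 transcripts of such chains were looked at. Fcer1a and Ms4a2, the other subunits of the IgE receptor, and Fcgr1, the high-affinity IgG receptor, were listed at 0 in all 8 libraries. Fcgr3, a low-affinity IgG receptor, had 1.39 FPKM in PGC library 1 and 0 in PGC library 2, against 1.77 FPKM in PGCLC library 2, 0.0496 FPKM in EGC line 7 and 0 in the other 4 cultured libraries. Syk, the kinase that the phosphorylated adaptor recruits, had 5.48 and 2.81 FPKM in PGC libraries 1 and 2, against 3.66 to 6.38 FPKM in the cultured libraries, so it did not follow Fcer1g.

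Tyrobp encodes DAP12, the second ITAM adaptor of the group (chr7:30413760-30417585, plus strand), and was listed at 0 in all 8 libraries. Hcst, which encodes the related adaptor DAP10 and lies 126 bases from Tyrobp, and Trem2, a macrophage receptor that signals through DAP12, were also listed at 0 in all 8. A value of 0 in all libraries was common for short transcripts. It occurred in 21.1% of protein-coding genes, and in 47.3% of the 332 with transcripts of 500 to 700 bases, the class of the 597-base Tyrobp transcript. Some genes used by every cell were close to 0, though not at it, in 1 library, such as Gusb (a lysosomal enzyme), at 0.0268 FPKM in PGC library 2. Of similar length, the Pf4, S100a9 and Fcer1g transcripts (588, 519 and 683 bases) had about 275, 139 and 252 reads in PGC library 1. Whether the listed 0 of Tyrobp is a failed estimate was not tested.

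S100a9 encodes the larger subunit of calprotectin, the calcium-binding protein of neutrophils and monocytes (chr3:90692632-90695721, minus strand). It had 15.6 FPKM in PGC library 1 and 8.77 FPKM in PGC library 2, about 139 and 64.1 reads, and was listed at 0 in every cultured library. Its PGC values were the closest to each other of the 6 detected transcripts, with library 1 at 1.78 times library 2. S100a8 encodes the smaller subunit, which pairs with S100a9 in the protein, and lies 22596 bases away. It had 0.732 FPKM in PGC library 1 and was listed at 0 in the other 7 libraries, far below its partner on the same per-length scale. Neither S100a9 nor S100a8 shares a 50-base stretch with another gene.

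Gp49a, now named Lilr4b, encodes a mouse immunoglobulin-like receptor of the gp49 family found on mast cells and other myeloid cells (chr10:51480632-51486703, plus strand). It had 21.8 FPKM in PGC library 1 and 5.42 FPKM in PGC library 2, about 687 and 140 reads. In culture it was listed at 0 except for 0.0446 FPKM in EGC line 7. Again the PGC libraries lay above all cultured ones, with library 1 at 4.02 times library 2. The entry Lilrb4, the symbol of the inhibitory receptor of the family, had 14.9 FPKM in PGC library 1 and 0.0413 FPKM in PGC library 2, against 0.0878 FPKM in PGCLC library 1 and 0 in the other 5 cultured libraries. In GENCODE M21 its identifier is named Gm49339 (chr10:51480612-51496613, plus strand), a gene model that spans Gp49a. The entry may therefore not be separate from Gp49a. Of the 50-base stretches of the Lilr4b transcript 24.3% also occur in other genes, and its neighbour Lilrb4a has no stretch of its own, so the division of reads between these copies is uncertain.

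Alas2 had the opposite order (chrX:150547375-150570638, plus strand). It had 2.26 FPKM in PGC library 1 and 32.7 FPKM in PGC library 2, about 79.2 and 939 reads. In culture it had 0.209 and 1.52 FPKM in iPGC libraries 1 and 2, 0.0735 and 0.705 FPKM in PGCLC libraries 1 and 2, and 3.08 and 2.67 FPKM in EGC lines 4 and 7. PGC library 2 stood above all other libraries, at 14.5 times library 1, while PGC library 1 lay inside the cultured range, below both EGC lines. Alas1, which encodes the form of the enzyme used by cells in general, had 0.543 and 0.188 FPKM in PGC libraries 1 and 2, against 2.45 to 12.1 FPKM in the cultured libraries. Its PGC and cultured values did not overlap, with the PGCs lower. Apex2, a DNA repair gene on the other strand, overlaps Alas2 and shares 13.2% of the 50-base stretches of its transcript. It had 0.173 and 3.86 FPKM in PGC libraries 1 and 2, against 0.999 to 17.3 FPKM in culture, and any use of strand in the counting is not given in the sources used here.

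**Figure D2:**
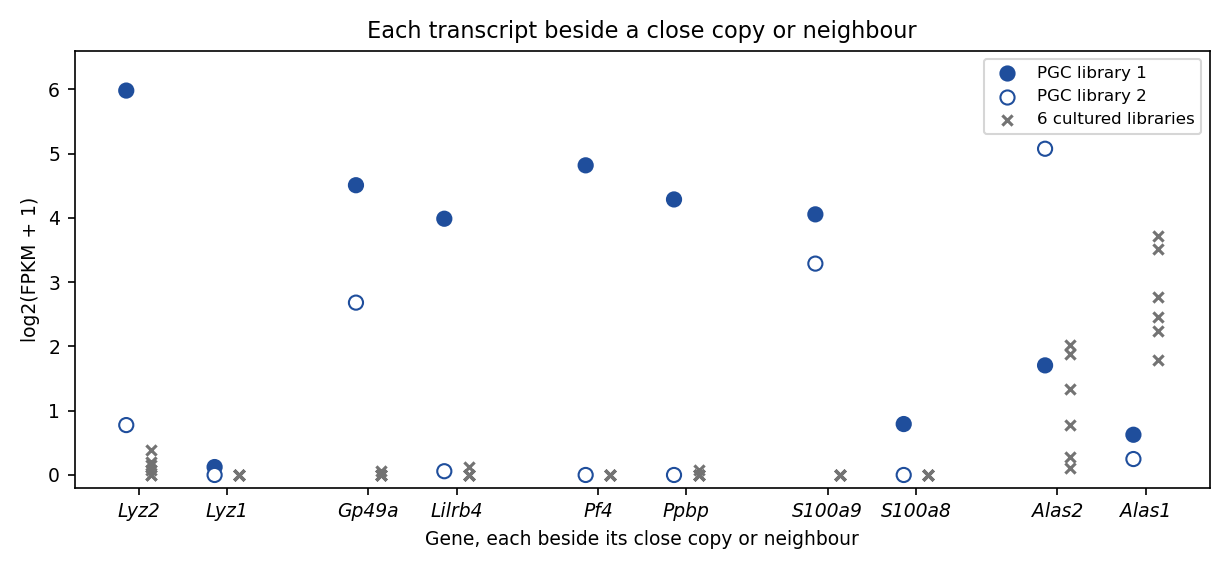
Level on the log2(FPKM + 1) scale of 5 transcripts, each to the left of a close copy or neighbour, with filled circles for PGC library 1, open circles for PGC library 2 and crosses for the 6 cultured libraries. Pf4 and Ppbp stand high in PGC library 1 alone, S100a8 and Lyz1 stay below 1 on this scale in every library, and Alas1 is higher in the cultured libraries than in the PGC libraries.

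By level, the order in PGC library 1 was Lyz2, Pf4, Gp49a, Fcer1g, S100a9, Alas2, Tyrobp, and in PGC library 2 it was Alas2, S100a9, Gp49a, Fcer1g, Lyz2, with Pf4 and Tyrobp at 0. Gp49a and Fcer1g were neighbours in both orders and differed by less than 1 FPKM in each library. On the log2(FPKM + 1) scale the difference of PGC library 1 minus PGC library 2 was 5.20 for Lyz2, 4.82 for Pf4, 1.94 for Fcer1g, 1.83 for Gp49a, 0.77 for S100a9 and -3.37 for Alas2. Lyz2 and Pf4, 2 of the 7, were thus higher in library 1 by 2 or more, as were 11.3% of the 9581 genes at 1 FPKM or more in either PGC library. Alas2 alone, 1 of the 7, was lower in library 1 by 2 or more, as were 10.7% of those genes. Such differences were common between these libraries, and with 1 library on each side they have no replicate check.

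**Figure D3:**
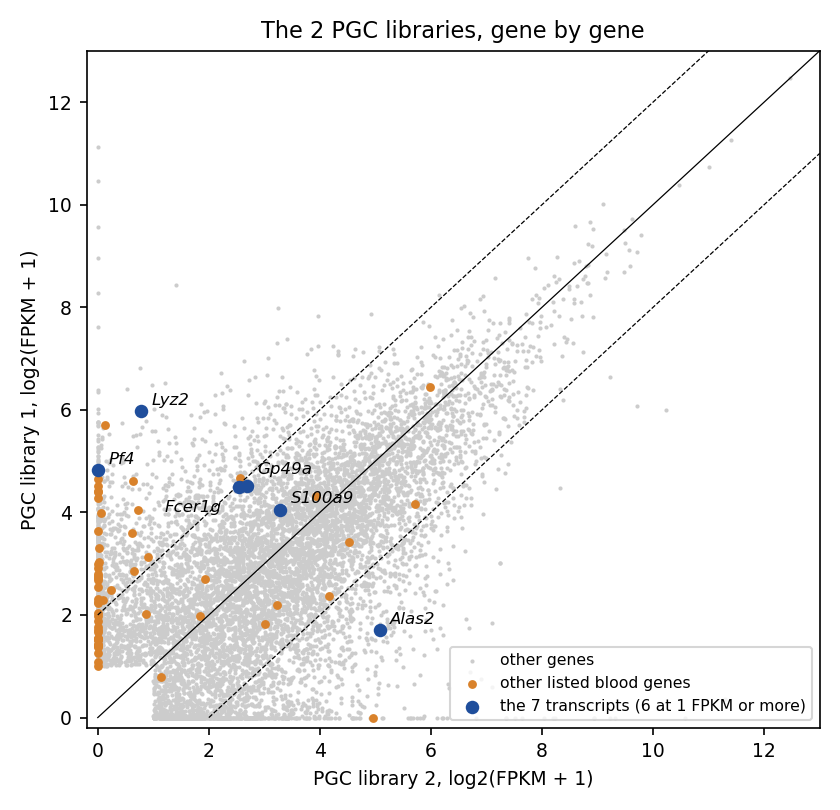
Level of each gene at 1 FPKM or more in either PGC library, with library 2 on the x axis and library 1 on the y axis, both as log2(FPKM + 1); the solid line marks equal levels and the dashed lines a difference of 2. Lyz2 and Pf4 lie above the upper dashed line, Alas2 lies below the lower one, and many of the other listed blood genes (orange) stand at 0 in library 2.

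Against culture, 4 of the 7 transcripts (Lyz2, Fcer1g, S100a9 and Gp49a) had both PGC libraries above all 6 cultured ones. Lyz2 did not pass the filter of 1 FPKM or more in at least 2 libraries, so 3 that passed it were above. Of all 11083 genes that passed, 6.05% were above in the same way. Since the transcripts were chosen on this contrast, nothing is read from these counts. Of the 7 transcripts, 4 passed the filter (Fcer1g, S100a9, Gp49a and Alas2), the first 3 of them through the PGC libraries alone. For Alas2 the mean log2(FPKM + 1) was 2.33 higher in the PGCs than in culture, but this was 4.01 with PGC library 1 left out and 0.64 with PGC library 2 left out. The other blood genes below were also listed with earlier results of these data known.

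The 8 lists of blood genes, which leave out the 7 transcripts, held 142 genes with an entry in the table. They cover macrophages and monocytes, granulocytes and neutrophils, mast cells with basophils and eosinophils, platelets and megakaryocytes, red cells, ITAM signalling, leukocytes in general, and blood transcription factors. Lymphoid genes were kept as a list apart. In PGC library 1, 57 of the 142 reached 1 FPKM, and in PGC library 2, 12 did, against 13 to 23 in the cultured libraries. The summed level was 574.7 and 228.4 FPKM in PGC libraries 1 and 2, against 122.3 to 365.6 FPKM in culture, so library 2 lay within the cultured range. Of the 59 listed genes at 1 FPKM or more in either PGC library, 47 reached it in library 1 alone, 2 in library 2 alone and 10 in both. On the log2(FPKM + 1) scale 30 of the 59 were higher in library 1 by 2 or more and 1 was lower by as much, with a median difference of 2.03. Of all 9581 genes at 1 FPKM or more in either PGC library, 11.3% were higher and 10.7% lower by as much. These are 2 libraries of 1 group, and no test between them was possible.

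Macrophage and monocyte genes had 9 of 24 members at 1 FPKM or more in PGC library 1 and 1 in PGC library 2, against 2 in each cultured library. Their summed level was 126 and 17.3 FPKM in PGC libraries 1 and 2, against 5.61 to 27.6 FPKM in culture. Ctss, which encodes the lysosomal protease cathepsin S, had 51.3 FPKM in PGC library 1 and 0.0983 FPKM in PGC library 2, against at most 0.101 FPKM in culture. Msr1, a scavenger receptor, had 27.8 FPKM in PGC library 1 and 0 in PGC library 2, against at most 0.0378 FPKM in culture. Cd68, a lysosomal membrane protein of macrophages, had 24.1 FPKM in PGC library 1 and 0 in PGC library 2, but also 3.11 to 16.3 FPKM in the cultured libraries. Lgmn, the lysosomal protease legumain, ran the other way, with 4.14 and 16.9 FPKM in PGC libraries 1 and 2 and 0.469 to 13.6 FPKM in culture. Further surface markers were seen in PGC library 1. Csf1r, the growth factor receptor of macrophages, had 4.61 FPKM in PGC library 1 and 0.176 FPKM in PGC library 2, and Itgam, the integrin chain CD11b, had 3.92 and 0.0686 FPKM, against at most 0.490 and 1.95 FPKM in culture for Csf1r and Itgam. Cd14, which binds bacterial lipopolysaccharide, had 2.24 FPKM in PGC library 1 and was listed at 0 in the other 7. Of the 24 genes, 7 were listed at 0 in all 8 libraries (Emr1, Fcgr1, Aif1, Marco, C1qb, C1qc and Timd4).

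Granulocyte and neutrophil genes had 4 of 20 members at 1 FPKM or more in PGC library 1 and 1 in PGC library 2, against 0 or 1 in each cultured library. Their summed level was 40.3 and 4.93 FPKM in PGC libraries 1 and 2, against 0 to 3.19 FPKM in culture, and in library 2 it was all Csf3r. Csf3r, the receptor of the granulocyte growth factor G-CSF, had 24.6 and 4.93 FPKM in PGC libraries 1 and 2, against 0.709 FPKM in iPGC library 1 and at most 0.149 FPKM in the other cultured libraries. Lcn2, a neutrophil granule protein that binds iron carriers of bacteria, had 11.4 FPKM in PGC library 1 and was listed at 0 in the other 7. Of the 20 genes, 12 were listed at 0 in all 8 libraries. These were Mpo, Elane, Mmp8, Retnlg, Ms4a3, Fcnb, Ltf, Camp, Ctsg, Chi3l3, Fpr1 and Stfa1. Prtn3, Ngp and Cebpe were listed at 0 in both PGC libraries. Both PGC values of Csf3r lay above all cultured ones, but it passed the filter through the PGC libraries alone, so its difference is a description. Among mast cell, basophil and eosinophil genes, Hdc, the enzyme that makes histamine, was the only 1 of 11 at 1 FPKM or more in any library, with 2.94 FPKM in PGC library 1 and 0 in PGC library 2, against 0.327 FPKM in PGCLC library 1 and 0 in the other cultured libraries.

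Platelet and megakaryocyte genes had 12 of 21 members at 1 FPKM or more in PGC library 1 and 2 in PGC library 2, against 1 to 4 in each cultured library. Their summed level was 146 and 45.2 FPKM in PGC libraries 1 and 2, against 1.81 to 26.3 FPKM in culture. Without Selp, a single gene of the list, the sum in PGC library 2 was 15.4 FPKM, inside the cultured range. Itgb3, the beta chain of the platelet fibrinogen receptor, had 19.1 and 14.3 FPKM in PGC libraries 1 and 2, against 0.0119 to 8.27 FPKM in culture. It was higher in the PGCs by 2.40 ± 0.49 on the log2(FPKM + 1) scale (standard error; limma adjusted p = 0.0430, 2 PGC against 6 cultured libraries). Itga2b, of the same list, had 3.77 and 0 FPKM in PGC libraries 1 and 2. In culture Itga2b had 0 to 17.99 FPKM, with the highest value in iPGC library 2. Its log2 difference from culture was -1.12, the other way from Itgb3, and did not pass (limma adjusted p = 0.537). Tubb1, Clec1b, P2ry12, Gp5 and Gp6 were listed at 0 in both PGC libraries. Gng11, a G protein gamma subunit abundant in platelets, had 23.5 and 0.554 FPKM in PGC libraries 1 and 2, against 0 to 2.81 FPKM in culture, and did not pass (limma adjusted p = 0.209). Gp1bb, a subunit of the von Willebrand factor receptor, had 21.9 and 0 FPKM in PGC libraries 1 and 2, against 0 to 7.02 FPKM in culture (limma adjusted p = 0.413). Selp, the adhesion protein P-selectin, was the only gene of the list that was higher in PGC library 2 than in PGC library 1. It had 0 in PGC library 1 and 29.8 FPKM in PGC library 2, against 0.869 FPKM in iPGC library 1 and 0 in the other cultured libraries.

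Erythroid genes had 6 of 13 members at 1 FPKM or more in PGC library 1 and 1 in PGC library 2, against 1 to 3 in each cultured library, the reverse of the order of Alas2. Slc4a1, the anion exchanger of the red cell membrane, had 20.4 FPKM in PGC library 1 and 0 in PGC library 2, against at most 0.0491 FPKM in culture. Epor, the erythropoietin receptor, had 4.83 and 0 FPKM in PGC libraries 1 and 2, against 0 to 0.393 FPKM in culture. Tfrc, the transferrin receptor that dividing cells in general use, made up most of the summed level of the list, with 86.0 and 62.1 FPKM in PGC libraries 1 and 2 and 36.4 to 136 FPKM in culture. The globin genes of the list, such as Hba-a1, Hba-x, Hbb-bt and Hbb-y, had no entry under the symbols searched, so their levels could not be read. The other genes of haem synthesis and its iron supply had 7 of 10 members at 1 FPKM or more in PGC library 1 and 5 in PGC library 2, against 8 to 10 in culture. Slc25a37, the mitochondrial iron importer, had 21.6 and 2.08 FPKM in PGC libraries 1 and 2, against 2.12 to 5.74 FPKM in culture, so its order between the PGC libraries was also the reverse of that of Alas2.

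Genes of ITAM signalling had 8 of 21 members at 1 FPKM or more in PGC library 1 and 2 in PGC library 2, against 3 to 5 in each cultured library. Plcg2, a phospholipase downstream of Syk, had 9.79 and 22.0 FPKM in PGC libraries 1 and 2, against 3.09 to 12.7 FPKM in culture. Fcgr2b, the inhibitory IgG receptor, had 5.94 FPKM in PGC library 1 and was listed at 0 in the other 7. Genes shared by most leukocytes had 12 of 17 members at 1 FPKM or more in PGC library 1 and 2 in PGC library 2, against 2 to 7 in culture. Their summed level was alike, 58.1 and 55.9 FPKM in PGC libraries 1 and 2, against 41.4 to 150.5 FPKM in culture. Ptpn6, a phosphatase with the highest PGC mean of the list, had 16.8 and 51.6 FPKM in PGC libraries 1 and 2. In culture Ptpn6 had 7.75 to 96.5 FPKM. By 2 or more on the log2(FPKM + 1) scale, 4 of the list were higher in library 1 and 0 lower. Coro1a, Was and Rac2 were listed at 0 in both PGC libraries. Cd53, a tetraspanin of leukocytes, had 7.19 and 0.0171 FPKM in PGC libraries 1 and 2, against at most 0.0346 FPKM in culture, and Ptprc, the leukocyte surface phosphatase CD45, had 3.09 FPKM in PGC library 1 and 0 in the other 7. Blood transcription factors had 5 of 15 members at 1 FPKM or more in PGC library 1 and 3 in PGC library 2, against 2 to 4 in culture. Cebpb, a factor of the myeloid lineage and of many other cells, had 15.6 and 0.660 FPKM in PGC libraries 1 and 2, against 0 to 2.80 FPKM in culture. Gata2 ran the other way, with 3.55 and 8.32 FPKM in PGC libraries 1 and 2 and 0.107 to 14.6 FPKM in culture. So did Myb, with 2.56 and 7.04 FPKM, against 1.97 to 5.10 FPKM in culture. By 2 or more on the log2(FPKM + 1) scale, 2 factors were higher in library 1 and 0 lower. Spi1, which encodes PU.1, and Gfi1 were listed at 0 in all 8 libraries. Lymphoid and natural killer cell genes had none of 14 members at 1 FPKM in any library.

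**Figure D4:**
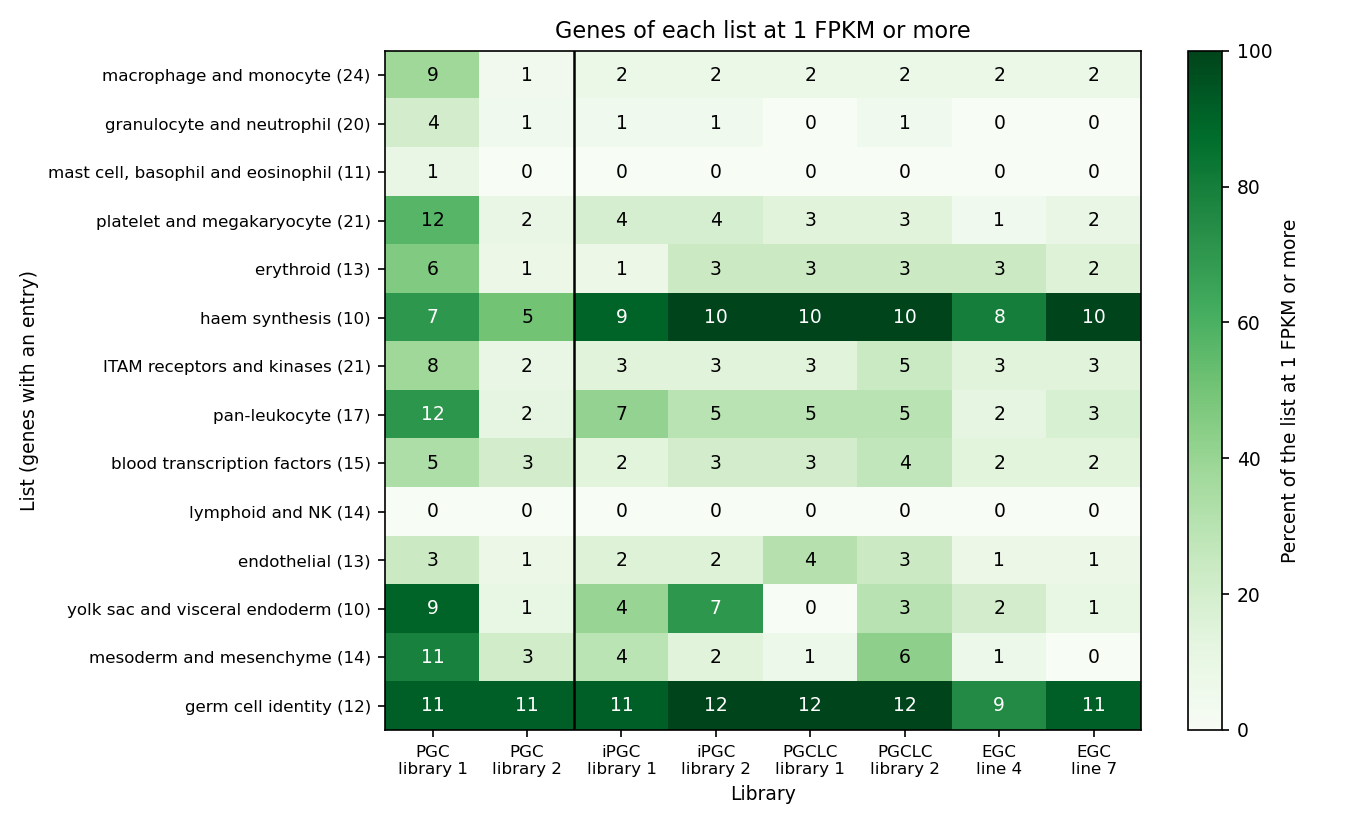
Number of genes at 1 FPKM or more in each list (rows, with the number that have an entry in brackets) in each of the 8 libraries (columns), shaded by the percent of the list. PGC library 1 has more genes than PGC library 2 in each of the 8 blood lists, none in the lymphoid list, and more in the yolk sac and visceral endoderm list (9 against 1) and the mesoderm and mesenchyme list (11 against 3), while the germ cell list has 11 in both.

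In the fit across all 11083 tested genes, 0.568% were called higher in the PGCs than in the cultured groups and 2.08% lower (limma, adjusted p below 0.05). Of the 31 listed blood genes that were tested, 9 passed the filter only with the help of a PGC library, so the filter itself favours a difference for them. The other 22 reached 1 FPKM in at least 2 cultured libraries. Of these 22, 1 was called higher, Itgb3, beside 0.345% of the 10725 tested genes that met the same condition, and their median log2 difference was 0.29, beside -0.40 over those genes. Among the 9, Csf3r was past the threshold as well, and 0 of the 31 were called lower. At an unadjusted limma p below 0.05, 4 of the 31 were higher and 3 lower, 22.6% in all, beside 22.3% of all tested genes. Itgb3 was not called when any one of the 8 libraries was left out (limma adjusted p = 0.0645 to 0.144). Without PGC library 2 the listed genes called were Cebpb, Gng11 and Thbs1 (a platelet adhesion protein), with library 1 as the only PGC value. Against single cultured groups, 0 of the 31 passed against iPGCs and 0 against PGCLCs, and Itgb3 passed against EGCs (limma adjusted p = 0.0347), beside 0.0451%, 0.117% and 0.217% of all tested genes called higher. At an unadjusted limma p below 0.05, 2 were higher and 2 lower against iPGCs (12.9%, beside 19.5% of all tested genes), 2 were higher and 5 lower against PGCLCs (22.6%, beside 19.5%), and 7 were higher and 2 lower against EGCs (29.0%, beside 17.2%).

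The blood genes were not the only ones that set PGC library 1 apart. Yolk sac and visceral endoderm genes had 9 of 10 members at 1 FPKM or more in PGC library 1 and 1 in PGC library 2, against 0 to 7 in culture, with summed levels of 227 and 2.53 FPKM in PGC libraries 1 and 2 and 1.70 to 17.4 FPKM in culture. Afp, the fetal serum protein alpha-fetoprotein, had 82.6 FPKM in PGC library 1 and 0 in PGC library 2, against at most 0.0559 FPKM in culture. Mesoderm and mesenchyme genes had 11 of 14 members at 1 FPKM or more in PGC library 1 and 3 in PGC library 2, against 0 to 6 in culture, with summed levels of 83.4 and 27.1 FPKM in PGC libraries 1 and 2 and 2.15 to 20.7 FPKM in culture. T, the mesoderm factor brachyury, had 37.9 and 0 FPKM in PGC libraries 1 and 2, against 0 to 2.76 FPKM in culture. Tbx4, a limb and allantois factor, ran the other way, with 7.11 and 13.4 FPKM in PGC libraries 1 and 2, against 0 to 1.54 FPKM in culture. It was past the threshold against culture (limma adjusted p = 0.0322) but, at 1 FPKM or more in a single cultured library, passed the filter with the help of the PGCs. Endothelial genes had 3 of 13 members at 1 FPKM or more in PGC library 1 and 1 in PGC library 2, against 1 to 4 in culture.

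Germ cell genes were present in both PGC libraries, with 11 of 12 at 1 FPKM or more in each. Their summed level was 664 FPKM in PGC library 1 and 1499 FPKM in PGC library 2, against 271 to 1715 FPKM in culture. Most of both PGC sums came from Dppa3 and Ifitm3. Dppa3 had 409 and 574 FPKM in PGC libraries 1 and 2, against 40.3 to 726 FPKM in culture. Ifitm3 had 99.1 and 599 FPKM in PGC libraries 1 and 2, against 67.4 to 392 FPKM in culture. Kit, the receptor that guides PGC migration and survival, had 35.0 and 96.5 FPKM in PGC libraries 1 and 2, against 9.59 to 49.3 FPKM in culture. Pou5f1, which encodes Oct4, had 24.7 and 72.1 FPKM in PGC libraries 1 and 2, against 48.6 to 327 FPKM in culture. Sox2, a pluripotency factor, was level, with 30.5 and 31.8 FPKM in PGC libraries 1 and 2, against 10.8 to 26.8 FPKM in culture. Ddx4, the germ cell helicase Vasa, was higher in library 1, with 6.10 and 0.0183 FPKM in PGC libraries 1 and 2, against 0.574 to 10.1 FPKM in culture. Nanog, a pluripotency factor, had 6.69 and 16.1 FPKM in PGC libraries 1 and 2, against 45.3 to 90.9 FPKM in culture, and was lower in the PGCs by the test (limma adjusted p = 0.0214). Library 1 had higher summed levels of blood, yolk sac and mesoderm genes than library 2, but a lower sum of germ cell genes. Much of the gap between the germ cell sums was Ifitm3. Across the germ cell list the median log2(FPKM + 1) difference of library 1 minus library 2 was -1.29. By 2 or more, 1 gene of that list was higher in library 1 and 2 were lower. The part of all these genes in the levels of the 7 transcripts was not tested.

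Few genes shared the patterns of Lyz2, Pf4, Fcer1g, S100a9 and Gp49a at like levels. A value of 0 in all 8 libraries, as for Tyrobp, was common (4903 identifiers, 24.3% of all). A total of 46 identifiers (0.228% of all) had 10 FPKM or more in PGC library 1 and less than 1 FPKM in the other 7 libraries. Of these, Lyz2 and Pf4 were 2 and the listed blood genes Ctss, Msr1, Slc4a1, Lcn2, Ppbp and Lilrb4 were 6. The Lilrb4 entry overlaps Gp49a in the annotation used here. The others included myeloid genes such as Clec4d, a lectin receptor (11.8 FPKM), and Ncf4, a subunit of the phagocyte oxidase (13.3 FPKM), but also Afp and the limb and skull factor Alx4 (20.7 FPKM), named here after their values were seen. The same pattern with PGC library 2 as the high library was held by 17 identifiers (0.084% of all), with none of the 7 transcripts among them. A further 9 identifiers (0.0447% of all) had 4 FPKM or more in both PGC libraries and less than 1 FPKM in all cultured ones. These were Fcer1g, S100a9, Gp49a, Csf3r, Wnt5a, Gna14, Aff2, Slc36a4 and the microRNA Mir5110.

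Likeness was measured as the root mean square difference of log2(FPKM + 1) over the 8 libraries, and the closest genes were named for each transcript. Closest to Lyz2 were Il1rn (0.234), Ctss (0.300) and Sox5 (0.338). Closest to Pf4 were Msr1 (0.0218), Cd44 (0.122) and Bst1 (0.124). For Fcer1g they were Phactr1 (0.273), Csf3r (0.297) and Ccl6 (0.464), and for Gp49a the same genes, with Csf3r at 0.293, Phactr1 at 0.296 and Ccl6 at 0.505. S100a9 was closest to Aff2 (0.368), Phactr1 (0.401) and Csf3r (0.444). No gene came as near to Alas2, whose closest were Ccnjl (0.539), Tarbp2 (0.662) and Adamts10 (0.729). Only 8 points enter each value, most of them at or near 0, and the 8 libraries are shared by every pair.

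The approximate depth was 17.2 and 14.1 M reads in PGC libraries 1 and 2, against 2.59 M reads in iPGC library 1 and 7.21 to 16.2 M reads in the other cultured libraries. A single read on a transcript of 1 kilobase was worth 0.0581 and 0.0710 FPKM in PGC libraries 1 and 2, so depth differed little between them. PGC libraries 1 and 2 held 8259 and 7991 genes at 1 FPKM or more, against 8677 to 10039 in culture. These estimates cover counting alone, since amplified reads are not independent molecules.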

How the data were processed

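RNA was measured in 8 libraries. Per the labels, RNA was amplified, spike-in RNA was added (not analysed here), and 50-base single-end reads were made. The values deposited by the authors are FPKM. Tools named per the submitters' processing notes were TopHat2 and Cufflinks, with the genome GRCm38 (mm10). The sources used here do not give versions, annotation, filters or strand use. The table had 20171 entries, and 18 repeated entries were dropped. Coordinates and lengths came from GENCODE M21, for 19747 identifiers, and promoters from RefSeq. Gp49a was matched through a RefSeq synonym. Depth was estimated from the smallest steps between low FPKM values, so no count test was used.

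The test was limma 3.58.1 in R 4.3.3 with a variance trend and robust priors, run on log2(FPKM + 1) with 4 group means over all 8 libraries. It covered genes that reached 1 FPKM in 2 or more libraries. It was two-sided, with Benjamini-Hochberg adjustment and a threshold of 0.05. Fold changes on this scale understate the change of low genes. In simulated data for PGCs against culture (11083 genes), the test recovered 35.2% of genes given a log2 change of 2 and 99.2% of those given 4, with 4.09% of calls false. The simulated spread followed the mean level alone, without the gene-to-gene differences of the real libraries, so these rates may be optimistic. Lists and values were handled in Python 3.11.15 with pandas 2.3.3. Transcripts and gene lists were chosen with earlier results of these data known. Named beside the 7 transcripts are their copies, neighbours or partners, up to 4 genes of a list with the highest PGC mean, genes of a list past the test, and for each transcript the 3 nearest genes. Csf1r, Itgam, Cd14, Itga2b, Sox2, Ddx4, markers listed at 0, Gusb, Apex2, Cebpb, Ptprc, Thbs1 and pattern genes outside this rule were named after their values were seen. Other settings were other pseudocounts, filters and scalings, no variance trend, a replicate block, fewer groups, and each library left out.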

Additional observations from a re-analysis of the deposited data

How the results depend on the processing

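With PGCs set against all 6 cultured libraries, 293 genes were called (limma; 63 higher and 230 lower). The count was 547 with a pseudocount of 0.1, 81 with 5, 47 without an expression filter and 122 without the EGC libraries. Quantile normalization gave 122 higher and 152 lower and equal medians 132 and 129, since scaling removes the median shift of -0.36. Leaving out single libraries gave 20 to 391. Of the listed blood genes, 2 were called higher, with 0 at a pseudocount of 5, without a filter and without the EGC libraries, 1 with a filter of 5 FPKM, and 0 to 3 with a library left out. It was 1 among genes at 1 FPKM in at least 2 cultured libraries, a condition chosen after seeing the data. The alternatives of the following counts were chosen after seeing the data. Against iPGCs, 88 became 166 (pseudocount 0.1), 34 (pseudocount 5), 18 (no filter), 45 (quantile), 46 (equal medians) and 40 (without EGCs), and 4 to 208 with a library left out. Against PGCLCs, 117 became 183, 32, 0, 36, 54 and 44 in the same order, and 0 to 279. Against EGCs, 82 became 31 (pseudocount 5) and 14 (no filter), and 1 to 96. Genes differing by 2 or more between the PGC libraries numbered 2103, against 3588 and 571 with pseudocounts of 0.1 and 5. With a replicate block on the PGC, iPGC and PGCLC libraries, 48 genes were called against culture, 10 against iPGCs, 6 against PGCLCs and 0 listed blood genes. Libraries of the same number did not deviate together (r of -0.0295 to 0.0582 over genes). With a single difference in each group, this cannot settle whether the numbers pair the samples. The causes of these moves were not tested beyond the scaling itself. Differences of the 6 detected transcripts kept their direction in all 84 recomputed values. Most of these directions could not change, so nothing is read from that count. A pseudocount cannot alter which PGC library is higher, and Fcer1g, S100a9 and Gp49a were at or near 0 in culture. For Pf4, Fcer1g, S100a9 and Gp49a, 8 values moved with the pseudocount, and Alas2 against culture (2.33) was 4.01 without PGC library 1 and 0.64 without PGC library 2. With a PGC library left out, Fcer1g, S100a9 and Gp49a gave no value, since they no longer passed the filter. Depth limits low values most in iPGC library 1, where 1 read per kilobase was worth 0.387 FPKM.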
